A study of Dipsacus asperoides with 9 samples.

Results

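The antioxidant, thioredoxin and glutathione unigenes of *Dipsacus asperoides* roots were examined across 3 stages of root growth. A unigene is a transcript cluster that Trinity assembled from the reads without a reference genome. Members were chosen by the words glutathione, superoxide dismutase, catalase, ascorbate peroxidase, thioredoxin, glutaredoxin or peroxiredoxin in the description of their best protein match, and not by their expression. The words occurred in 339 of the 65535 unigenes in the table, which holds part of the assembly. Of these, 116 did not reach 1 FPKM in 3 of the 9 libraries, and 58 others were dropped because their match came from *Beta*, *Chenopodium*, *Spinacia*, *Quercus suber* or *Hordeum*. The remaining 165 members are described here, beside all 34925 unigenes that passed the same filter on low values. They comprised 44 glutathione transferases, 32 thioredoxins and thioredoxin-like proteins, 29 glutaredoxins, 14 peroxiredoxins, 13 superoxide dismutases (SOD), 12 other enzymes of glutathione metabolism, 7 glutathione peroxidases, 6 ascorbate peroxidases (APX), 5 thioredoxin reductases and 3 catalases.

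*D. asperoides* is a medicinal herb whose root accumulates asperosaponin VI, a triterpenoid saponin. The study sequenced mRNA from roots of wild type plants at the one-leaf stage (L1), at the two-leaf stage (L2) and after 7 months of growth (M7), with 3 biological replicates of each stage and no treatment in any group. The seedling stages and the older root differ in age and size together, and whether a replicate was 1 root or a pool of roots is not given in the sources used here. The p-values therefore measure only the spread between these libraries.

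Cells form superoxide and hydrogen peroxide as by-products of respiration, photosynthesis and oxidase activity. SOD converts superoxide to hydrogen peroxide, and catalase, APX, peroxiredoxins and glutathione peroxidases then remove the peroxide. Thioredoxins and glutaredoxins carry the reducing power to many of these enzymes and to other proteins with disulfide bonds, and glutathione transferases attach glutathione to reactive compounds or bind them. In plants these families are large, and their members are divided among the cytosol, chloroplasts or other plastids, mitochondria and peroxisomes.

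Levels are given in FPKM, fragments per kilobase of transcript scaled to the size of the library, and the table holds no read counts, so the number of reads behind a value is not known. Log2 fold changes are on the log2(FPKM + 1) scale, which understates the change of low unigenes, and are given with their standard error (SE). A member "rose" or "fell" where limma, fitted to all 34925 unigenes in the 9 libraries, gave a Benjamini-Hochberg adjusted p below 0.05. A DEG had, besides, a log2 fold change beyond 2 in size and exceeded a mean of 30 FPKM in at least 1 stage. The M7 libraries were narrower than the others, with 13430 to 18794 unigenes at 1 FPKM or more, against 26048 to 28468 at L1 and 32849 to 34173 at L2. The 100 highest unigenes held 34.9 to 48.1% of all FPKM at M7, 25.3 to 34.2% at L1 and 20.6 to 21.6% at L2, and M7 replicate 1 and L1 replicate 3 were the highest of their stages. Over all unigenes, L2 against L1 had a median log2 fold change of 0.32, M7 against L1 had -0.48, and M7 against L2 had -1.07. The libraries also differed in marker genes by stage. The summed level of 28 unigenes named for root genes was 1115 to 1356 FPKM at L1, 588 to 602 at L2 and 126 to 267 at M7, where 7 were listed at 0. Of this sum, the scarecrow-like factor PAT1 (TRINITY_DN11157_c0_g1) alone held 760 to 980 FPKM at L1, 286 to 289 at L2 and 29.5 to 86.0 at M7, and the other 27 held 352 to 376, 300 to 316 and 96.7 to 201. At M7 the casparian strip membrane proteins, which mark the root endodermis, were at 0 to 0.79 FPKM, and 18 of the 28 fell and 2 rose in M7 against L1. The summed level of 18 green tissue unigenes was 123 to 156 FPKM at L1, 51.1 to 56.9 at L2 and 1249 to 3011 at M7, although 10 of them fell, 2 rose and 2 were listed at 0 at M7. The part of these differences in the results below was not tested. In whole roots, fewer cells of a type and less RNA per cell cannot be told apart.

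Summed over all families, the members took a larger share of all FPKM at M7, while fewer members, and fewer of all unigenes, were detected there. The gain was not common to all families, as their sums below show. The sums were not computed under the other scalings. The summed level of the 165 members was 5864 to 5981 FPKM at L1, 5127 to 5583 at L2 and 8556 to 10428 at M7. This was 0.861 to 0.931% of all FPKM at L1, 0.833 to 0.900% at L2 and 1.34 to 1.57% at M7. The M7 libraries lay above every seedling library, while fewer members were detected in them, with 81 to 93 members at 1 FPKM or more against 119 to 128 at L1 and 140 to 144 at L2. Of all unigenes, 13430 to 18794 were at 1 FPKM or more at M7, against 26048 to 28468 at L1 and 32849 to 34173 at L2.

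In M7 against L1, 24 members rose (14.5%) and 50 fell (30.3%), where 9.37% and 35.1% of all unigenes did so. In M7 against L2, 28 members rose (17%) and 69 fell (41.8%), beside 7.71% and 52.6% of all unigenes. In L2 against L1, 38 rose (23.0%) and 37 fell (22.4%), beside 26.1% and 14.8%. Of the members, 19 were at 1 FPKM or more at L2 alone (11.5%, beside 11.8% of all unigenes) and 9 at L1 alone (5.45%, beside 3.73%). They passed the filter on low values only through that stage, so the filter itself favours a call for them. The comparisons share their libraries. All unigenes include those without a description and those matched to the dropped species, neither of which the members hold. Below 0.1 FPKM in all M7 libraries were 36.1% of all unigenes, but 19.9% of the 18075 with a description after the same drop. Rises and falls were not counted in that narrower set, so its part in these differences was not tested. The median log2 fold changes of the members were -0.0090 (L2 against L1), -0.27 (M7 against L1) and -0.64 (M7 against L2), which was -0.33, 0.20 and 0.43 relative to the median of all unigenes. The balance of rises and falls depended on the scaling of the libraries. With median ratio rescaling, the ratio in M7 against L1 was 37 to 43, and with quantile normalization 45 to 38. The same scalings gave 45 to 60 and 46 to 39 in M7 against L2, and 35 to 40 and 34 to 52 in L2 against L1.

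**Figure D1:**
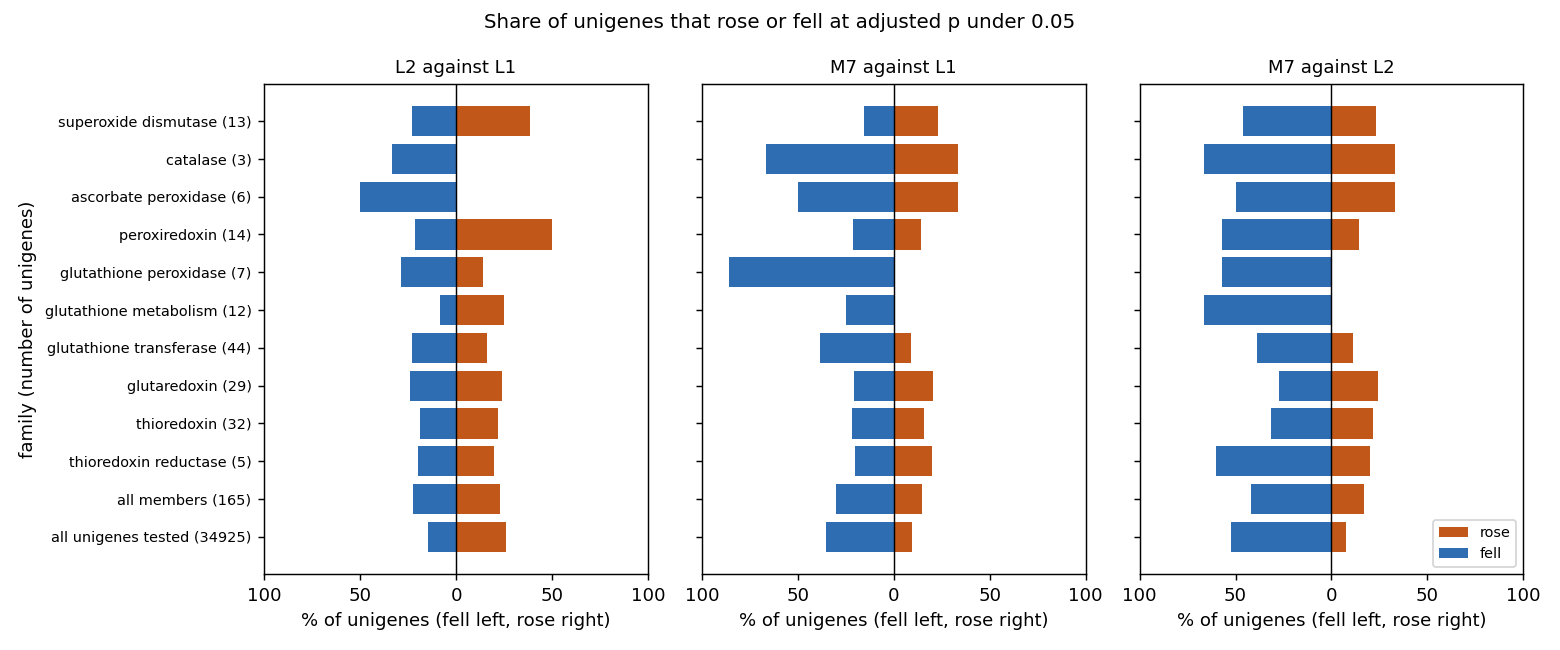
Share of unigenes (%, x axis) of each family (y axis, with its number of unigenes) that rose (orange, right) or fell (blue, left) at adjusted p below 0.05 in the limma fit, for the 3 comparisons. In M7 against L1, 14.5% of all members rose and 30.3% fell, beside 9.37% and 35.1% of all unigenes.

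Abundant members were also counted apart. Of the 71 members with a mean of 10 FPKM or more over the 9 libraries, a limit chosen after the values were seen, 20 rose (28.2%) and 14 fell (19.7%) in M7 against L1. Of all 7953 unigenes over the same limit, 17.7% rose and 39% fell. The mean includes the M7 libraries, and 3 of the 20 had a mean under 10 FPKM in both seedling stages. In M7 against L2 the abundant members were 24 (33.8%) and 18 (25.4%), beside 15.7% and 44%. In L2 against L1 they were 6 (8.45%) and 16 (22.5%), beside 9.48% and 8.85%. There too the limit uses the levels that are compared. GSTF1 TRINITY_DN11366_c0_g1, with means of 0.42 FPKM at L1 and 0 at M7, passed it only through L2. So did the glutaredoxin-C3 unigenes TRINITY_DN14203_c0_g1 and TRINITY_DN21617_c0_g2. Peroxiredoxin TRINITY_DN34711_c0_g1, with means of 0.097 FPKM at L2 and 0 at M7, passed it only through L1. Of the 94 members under the limit, 4 rose (4.26%) and 36 fell (38.3%) in M7 against L1, beside 6.91% and 34.0% of all unigenes under it. There were 5 DEGs among the members for L2 against L1 (3.03%, beside 1.24% of all unigenes), 13 for M7 against L1 (7.88%, beside 5.14%) and 15 for M7 against L2 (9.09%, beside 5.15%). All were among the 71 abundant members. The thresholds require this, since a stage mean over 30 FPKM gives a mean over 10 FPKM across the 9 libraries. Of the 71, 18.3% and 21.1% were DEGs in the M7 comparisons, beside 22.6% and 22.6% of all unigenes over the same limit. Without L1 replicate 3 the DEGs numbered 3, 7 and 13. APX TRINITY_DN106620_c0_g1, peroxiredoxin TRINITY_DN34711_c0_g1 and thioredoxin TRINITY_DN37677_c0_g1 then had no stage mean over 30 FPKM. APX TRINITY_DN339_c1_g1 and glutaredoxin TRINITY_DN117141_c0_g1 had a log2 fold change under 2, and hydroxyacylglutathione hydrolase TRINITY_DN22290_c0_g2 did not pass the test. In all, 18 members were DEGs in at least 1 comparison.

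The summed levels set the families apart. From L1 to M7 the mean sum of the SODs went from 679 ± 28.0 to 1633 ± 216 FPKM (SD, n = 3), that of the APXs from 1386 ± 74.9 to 2530 ± 738, that of the catalases from 81.6 ± 1.68 to 179 ± 38.2 and that of the peroxiredoxins from 438 ± 31.5 to 1199 ± 732, or to 776 without M7 replicate 1. In each of these families all 3 M7 sums lay above all 6 seedling sums. The sum of the glutathione peroxidases went the other way, from 32.1 ± 6.15 at L1 to 15.8 ± 3.47 at L2 and 2.56 ± 2.18 at M7, with no overlap between the stages. The thioredoxin sums overlapped between L1 (650 to 684 FPKM) and M7 (553 to 720), and so did the glutaredoxin sums, at 658 to 800 FPKM and 709 to 854.

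**Figure D2:**
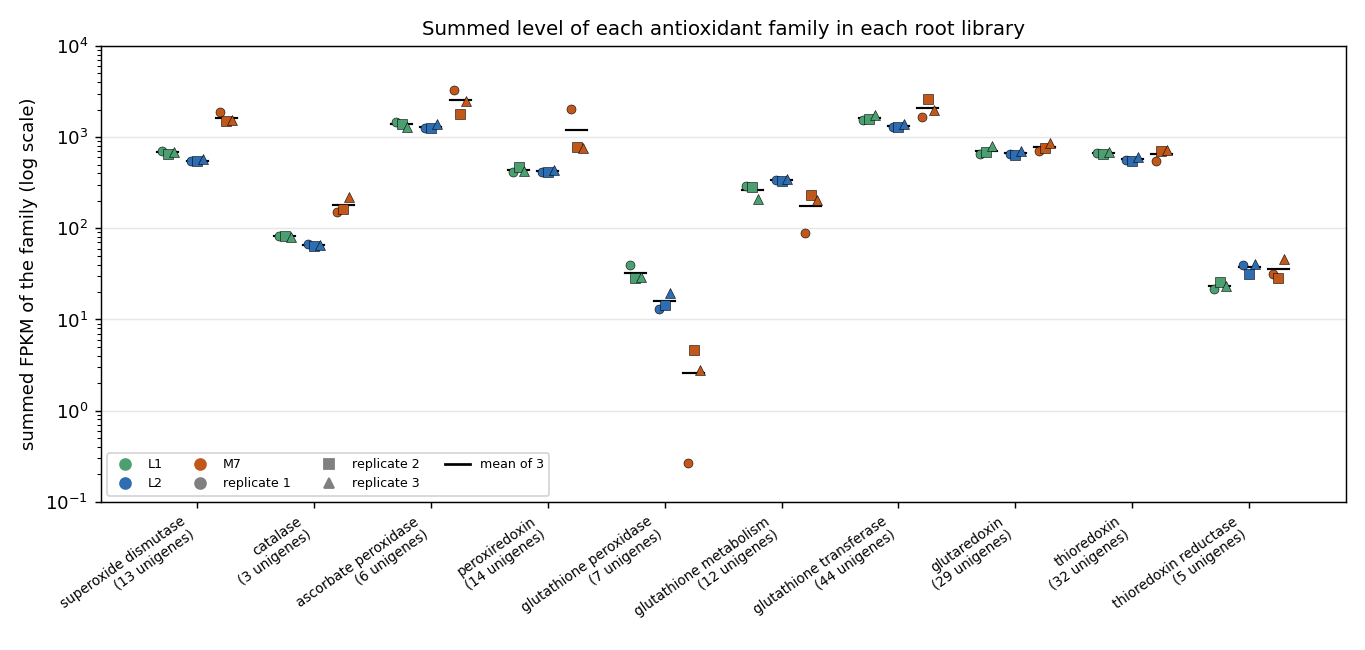
Summed FPKM of the members of each family (y axis, log scale) in each of the 9 libraries, by family (x axis). Colours give the stage, point shapes the replicate and black bars the mean of 3 libraries. The SOD, catalase, APX and peroxiredoxin sums were highest in all 3 M7 libraries, and the glutathione peroxidase sum was lowest there (2.56 ± 2.18 FPKM).

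Beside 9.37% and 35.1% of all unigenes, 3 of the 13 SODs rose (23.1%) and 2 fell (15.4%) in M7 against L1. Beside 7.71% and 52.6%, 3 SODs rose (23.1%) and 6 fell (46.2%) in M7 against L2. Quantile normalization gave 5 and 2, and 5 and 5, and turned their median log2 fold change in M7 against L2 from -0.74 to 0.44. The 3 that rose were the most abundant SODs of the root. The copper-zinc SOD TRINITY_DN15607_c1_g2, of the form that works in the cytosol and plastids, had 537, 471 and 418 FPKM at L1, 389, 385 and 413 at L2, and 1553, 963 and 1094 at M7. All M7 libraries lay above all seedling libraries. Its log2 fold change was 1.32 (SE 0.20, limma adjusted p = 0.000949) in M7 against L1 and 1.57 (SE 0.20, adjusted p = 0.000238) in M7 against L2, and L2 did not pass the test against L1 (adjusted p = 0.361). The manganese SOD TRINITY_DN2180_c0_g2, the mitochondrial form, had 72.4, 74.2 and 88.4 FPKM at L1, 40.3, 46.3 and 49.8 at L2, and 112, 327 and 225 at M7. The stages did not overlap, and the M7 libraries spread widely. It rose by 1.36 (SE 0.36, limma adjusted p = 0.0145) in M7 against L1, a call lost in a fit of those stages alone, and by 2.13 (SE 0.36, adjusted p = 0.00106) in M7 against L2, where it was the DEG of the family (1.79 without M7 replicate 2, under the DEG limit). A further copper-zinc SOD, TRINITY_DN20581_c0_g4, was lower in L2 against L1 (log2 fold change -0.90, SE 0.27, limma adjusted p = 0.0253) and rose in M7 against both, reaching 183 to 213 FPKM.

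The other SODs were at 9 FPKM or less in every stage mean, except for TRINITY_DN14295_c0_g2 and TRINITY_DN14295_c0_g1, which were high at L2. The first was at 21.8, 22.5 and 17.9 FPKM at L2 and was listed at 0 in the other 6 libraries (limma adjusted p = 7.52e-07 in L2 against L1). It passed the filter on low values only through L2. The second, a copper-zinc form, had a mean of 13.9 ± 2.01 FPKM (SD, n = 3) at L2 and was at 0 at M7. They come from a single Trinity component, which also holds TRINITY_DN14295_c0_g3, so reads may be divided among them. An iron SOD, the plastid form, had 8.69 ± 2.96, 5.07 ± 0.502 and 4.84 ± 3.12 FPKM (SD, n = 3) at L1, L2 and M7 (TRINITY_DN13682_c0_g2) and passed no test.

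APX uses ascorbate to reduce hydrogen peroxide to water. Of the 6 APXs, 2 rose (33.3%) and 3 fell (50%) in M7 against L1, beside 9.37% and 35.1% of all unigenes. Both other scalings gave 1 rise and 3 falls. Among the APXs, 1 unigene held 82.9% of the summed FPKM at L1, 83.0% at L2 and 69.7% at M7. This unigene, TRINITY_DN26825_c0_g1, the most abundant member of all families, matched the cytosolic L-ascorbate peroxidase 2 and had 1199, 1164 and 1083 FPKM at L1, 1040, 1054 and 1152 at L2, and 2171, 1391 and 1733 at M7. The M7 libraries were above all others. The log2 fold change in M7 against L1 was 0.60 (SE 0.18, limma adjusted p = 0.025), but it no longer passed after median ratio rescaling (log2 fold change 1.24), without M7 replicate 1 (log2 fold change 0.44), without M7 replicate 3 (0.60) or without L1 replicate 2 (0.61), and quantile normalization turned its sign (-0.18). The second cytosolic APX, TRINITY_DN339_c1_g1, had 212, 202 and 125 FPKM at L1, 208, 196 and 215 at L2, and 1114, 419 and 759 at M7. No M7 library overlapped the seedlings. It rose by 2.01 (SE 0.36, limma adjusted p = 0.00205) in M7 against L1, a DEG, and by 1.77 (SE 0.36, adjusted p = 0.00296) in M7 against L2. The first value was 1.77 without L1 replicate 3, 1.68 without M7 replicate 1 and 1.96 without M7 replicate 3, each under the DEG limit and past the test.

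Another APX, TRINITY_DN106620_c0_g1, was a DEG in all 3 comparisons. It had 16.95, 21.5 and 56.1 FPKM at L1 and 2.96, 5.36 and 5.65 at L2, and was listed at 0 in all M7 libraries. The stages did not overlap, and L1 replicate 3 stood well above the other L1 libraries. The log2 fold change in L2 against L1 was -2.37 (SE 0.43, limma adjusted p = 0.00208), and M7 differed from L1 with adjusted p = 4.68e-05. TRINITY_DN32983_c0_g1, the next APX by level, fell from 23.5 ± 11.1 FPKM at L1 to 8.66 ± 0.0306 at L2 and 1.48 ± 0.241 at M7 (SD, n = 3), with a log2 fold change of -3.22 (SE 0.30, limma adjusted p = 5.84e-05) in M7 against L1.

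Catalase splits hydrogen peroxide directly and works mainly in peroxisomes. The catalase isozyme 3 unigene TRINITY_DN1362_c0_g1 had 54.8, 51.4 and 45.2 FPKM at L1, 54.9, 49.8 and 55.3 at L2, and 153, 162 and 223 at M7. All M7 libraries exceeded the seedlings, which overlapped each other. It rose by 1.79 (SE 0.20, limma adjusted p = 0.000154) in M7 against L1 and by 1.71 (SE 0.20, adjusted p = 0.000127) in M7 against L2. The catalase TRINITY_DN102186_c0_g1 moved in the other direction. It had 24.8, 29.0 and 32.5 FPKM at L1, 10.4, 14.3 and 10.2 at L2, and 0 in each M7 library, and it fell by 1.24 on the log2 scale in L2 against L1 (SE 0.21, limma adjusted p = 0.00128). Of the 3 catalase members, only TRINITY_DN1362_c0_g1 was above 0 at M7, where 36.1% of all unigenes were below 0.1 FPKM in all libraries. In M7 against L1, 1 of the 3 rose (33.3%) and 2 fell (66.7%), beside 9.37% and 35.1% of all unigenes.

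Peroxiredoxins reduce peroxides with a cysteine that thioredoxin or glutaredoxin restores. Of the 14 members, 2 rose (14.3%) and 3 fell (21.4%) in M7 against L1, beside 9.37% and 35.1% of all unigenes. Both members that rose were the abundant type II forms. Peroxiredoxin-2B (TRINITY_DN3604_c0_g2), a cytosolic form, had 285, 324 and 257 FPKM at L1, 253, 250 and 255 at L2, and 1335, 595 and 555 at M7. Every M7 library was above the seedlings, and M7 replicate 1 was more than both others together. The log2 fold change was 1.40 (SE 0.32, limma adjusted p = 0.00728) in M7 against L1 and 1.59 (SE 0.32, adjusted p = 0.00286) in M7 against L2. Peroxiredoxin-2E-2 (TRINITY_DN10947_c0_g1), a plastid form, had 90.1, 101 and 102 FPKM at L1, 109, 121 and 125 at L2, and 701, 184 and 211 at M7. The pattern was the same, with M7 replicate 1 far above the other M7 libraries. It rose by 1.61 (SE 0.46, limma adjusted p = 0.0196) in M7 against L1, but not in the fits without L1 replicate 1 (1.56) or without L1 replicate 2 (1.64). The calls of both peroxiredoxins against L1 were lost in a fit of L1 and M7 alone.

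**Figure D3:**
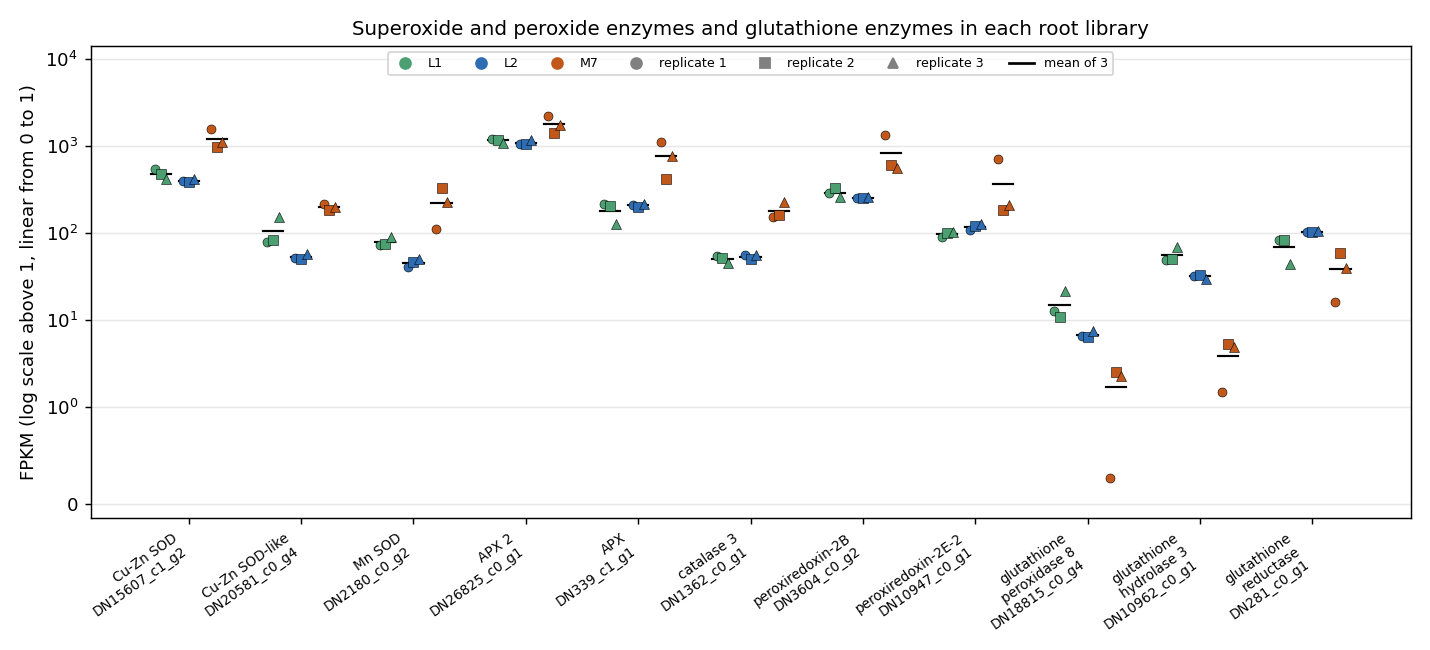
FPKM (y axis, log scale above 1 and linear from 0 to 1) of 11 SOD, APX, catalase, peroxiredoxin and glutathione enzyme unigenes in the 9 libraries. Colours give the stage, point shapes the replicate and black bars the mean of 3. The copper-zinc SOD TRINITY_DN15607_c1_g2 reached 963 to 1553 FPKM at M7, while the glutathione hydrolase 3 TRINITY_DN10962_c0_g1 was at 1.47 to 5.29 FPKM there.

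Other peroxiredoxins were tied to a seedling stage. A second unigene matched to peroxiredoxin-2E-2, TRINITY_DN34711_c0_g1, had 23.8, 29.7 and 37.0 FPKM at L1, 0.29 in 1 L2 library and 0 in the other L2 and in all M7 libraries. It was a DEG in L2 against L1 (log2 fold change -4.82, SE 0.22, limma adjusted p = 1.03e-06) and in M7 against L1 (adjusted p = 2.86e-06). The reverse held for TRINITY_DN36027_c0_g2, a peroxiredoxin-2E, which was listed at 0 at L1 and M7 and had 19.0, 14.9 and 17.95 FPKM at L2 (limma adjusted p = 8.26e-07 in L2 against L1). It passed the filter on low values only through L2. Of the 14 peroxiredoxins, 10 were below 0.1 FPKM in all M7 libraries (71.4%, where 36.1% of all unigenes were), and the 2 that rose carried the family there.

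No glutathione peroxidase rose at M7. In plants these enzymes draw their electrons mainly from thioredoxin despite their name. Of 7 members, 6 fell in M7 against L1 (85.7%, beside 35.1% of all unigenes) and 4 in M7 against L2 (57.1%, beside 52.6%). After quantile normalization the counts were 4 and 0. The most abundant, TRINITY_DN18815_c0_g4, matched glutathione peroxidase 8 and had 12.6, 10.9 and 21.4 FPKM at L1, 6.46, 6.42 and 7.40 at L2, and 0.27, 2.53 and 2.24 at M7. The stages were in steps without overlap. The log2 fold change was -2.65 (SE 0.42, limma adjusted p = 0.00103) in M7 against L1 and -1.67 (SE 0.42, adjusted p = 0.00864) in M7 against L2. TRINITY_DN15723_c0_g1 had 12.4, 7.97 and 1.42 FPKM at L1 and was listed at 0 at L2 and M7.

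The other 12 enzymes of glutathione metabolism were 8 glyoxalase enzymes, 3 glutathione reductases and 1 glutathione hydrolase. The glyoxalase sum was 135 ± 34.2 FPKM at L1, 193 ± 8.84 at L2 and 124 ± 49.7 at M7 (SD, n = 3), with L1 and M7 overlapping and L2 above both. The sum of the reductases and the hydrolase was 128 ± 13.1 FPKM at L1, 143 ± 0.888 at L2 and 51.5 ± 27.4 at M7 (SD, n = 3), and every M7 library was below all seedlings. None of the 12 rose at M7, 3 fell against L1 (25%, beside 35.1% of all unigenes) and 8 fell against L2 (66.7%, beside 52.6%). Median ratio rescaling gave 3 rises against L1 and 1 against L2, and quantile normalization 2 and 2. Glutathione reductase, which regenerates reduced glutathione with NADPH, had 82.4, 81.5 and 43.6 FPKM at L1, 103, 101 and 105 at L2, and 16.1, 59.2 and 38.9 at M7 (TRINITY_DN281_c0_g1). L2 lay above all M7 libraries, whereas L1 and M7 overlapped. The log2 fold change in M7 against L2 was -1.59 (SE 0.46, limma adjusted p = 0.0157), and M7 against L1 did not pass (adjusted p = 0.126).

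Glutathione hydrolase 3 (TRINITY_DN10962_c0_g1), a gamma-glutamyl transferase that starts the breakdown of glutathione, had 48.4, 50.3 and 67.8 FPKM at L1, 32.3, 32.9 and 29.7 at L2, and 1.47, 5.29 and 4.87 at M7. The stages did not overlap. It fell by 3.63 on the log2 scale in M7 against L1 (SE 0.36, limma adjusted p = 8.23e-05) and fell by 2.86 against L2 (SE 0.36, adjusted p = 0.000199). The glyoxalase pathway uses glutathione to detoxify methylglyoxal, a by-product of sugar breakdown. Its second enzyme, the mitochondrial hydroxyacylglutathione hydrolase 2 (TRINITY_DN22290_c0_g2), had 39.7, 40.4 and 47.0 FPKM at L1, 34.5, 32.1 and 32.9 at L2, and 1.21, 18.7 and 10.7 at M7. M7 was below the seedlings throughout, with a log2 fold change of -2.44 (SE 0.69, limma adjusted p = 0.0195) in M7 against L1. That call was lost without L1 replicate 1 (-2.48), 2 (-2.47) or 3 (-2.36), and without M7 replicate 1 it passed at -1.51 (limma adjusted p = 0.00132), under the DEG limit. The first enzyme, lactoylglutathione lyase, had means of 43.8 ± 21.7, 80.3 ± 6.25 and 70.4 ± 28.4 FPKM (SD, n = 3) at L1, L2 and M7 for TRINITY_DN2196_c0_g1 and passed no test.

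The glutathione transferases exchanged their leading unigene. Of the 44 members, 4 rose (9.09%) and 17 fell (38.6%) in M7 against L1, near the 9.37% and 35.1% of all unigenes. In M7 against L2, 5 rose (11.4%) and 17 fell (38.6%), beside 7.71% and 52.6% of all unigenes. After quantile normalization the counts were 9 and 12, and 11 and 10. The family sum was 1535 to 1746 FPKM at L1, 1284 to 1395 at L2 and 1682 to 2593 at M7. In the seedlings the highest was TRINITY_DN347_c1_g1, a probable glutathione transferase, with 644, 691 and 1032 FPKM at L1 and 464, 454 and 505 at L2, and it was listed at 0 in all 3 M7 libraries. M7 differed from L1 with a limma adjusted p of 3.63e-07. The decline from L1 to L2 had a log2 fold change of -0.70 (SE 0.21, adjusted p = 0.0288), which did not pass with any 1 of the L2 libraries left out (-0.69, -0.67 and -0.75 without replicates 1, 2 and 3). At M7 the highest was TRINITY_DN2499_c0_g1, with 91.9, 89.3 and 39.2 FPKM at L1, 99.8, 99.0 and 107 at L2, and 1116, 1247 and 858 at M7. Its M7 libraries lay far above all the others, and the log2 fold change was 3.93 (SE 0.33, limma adjusted p = 3.63e-05) in M7 against L1 and 3.37 (SE 0.33, adjusted p = 4.35e-05) in M7 against L2. Whether the 2 unigenes are alleles, paralogs or parts of different transcripts cannot be read from the table, which holds no sequence.

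A further pair of glutathione transferases were DEGs upward at M7. The tau class member U17-like (TRINITY_DN19340_c0_g2), from a class found in plants that acts on herbicides and other foreign compounds, had 7.46, 5.77 and 3.78 FPKM at L1, 5.05, 5.47 and 7.93 at L2, and 116, 103 and 150 at M7. The M7 values were far from those of both seedling stages, which overlapped. This was the largest log2 fold change upward in M7 against L1 among members that were above 0 in every L1 library, at 4.24 (SE 0.28, limma adjusted p = 1.31e-05). TRINITY_DN3174_c0_g1 had 10.1, 11.8 and 3.52 FPKM at L1, 10.3, 12 and 14.6 at L2, and 27.9, 163 and 102 at M7. Its M7 libraries were higher throughout but spread widely, and the log2 fold change was 3.19 (SE 0.65, limma adjusted p = 0.00396).

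The phi class, also of plants, held members that were highest in a seedling stage. F9-like (TRINITY_DN10743_c1_g1), at 34.5 ± 11.2, 16.0 ± 1.19 and 13.7 ± 9.34 FPKM (SD, n = 3) at L1, L2 and M7, passed no test. F11-like (TRINITY_DN28888_c0_g1) had 30.7, 32.9 and 28.8 FPKM at L1, 11.03, 10.1 and 10.6 at L2, and 0.53, 2.38 and 1.60 at M7. The stages formed separate steps, with log2 fold changes of -1.46 (SE 0.29, limma adjusted p = 0.00354) in L2 against L1 and -3.74 (SE 0.29, adjusted p = 2.52e-05) in M7 against L1. GSTF1 (TRINITY_DN11366_c0_g1) had 0, 0.75 and 0.50 FPKM at L1, 44.7, 49.8 and 55.0 at L2, and 0 at M7, a rise of 5.20 (SE 0.24, limma adjusted p = 1.09e-06) in L2 against L1. A zeta class member, of the class that takes part in tyrosine breakdown, fell from 24.1 ± 7.55 FPKM at L1 to 1.75 ± 1.26 at M7 (TRINITY_DN12356_c0_g1, SD, n = 3, limma adjusted p = 0.000276). Several other abundant glutathione transferases passed no test, such as TRINITY_DN21083_c0_g1, with 134 ± 39.2, 137 ± 7.16 and 135 ± 107 FPKM at L1, L2 and M7, whose M7 libraries ran from 14.3 to 218 FPKM.

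**Figure D4:**
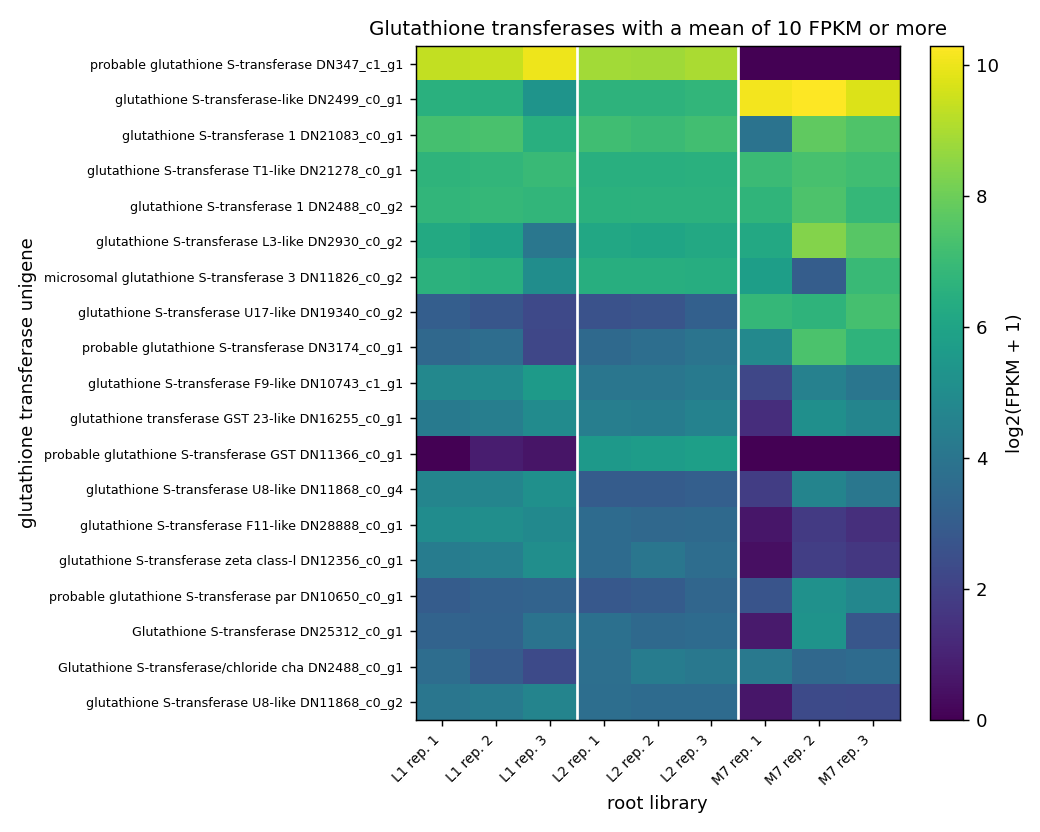
Level as log2(FPKM + 1) (colour) of the glutathione transferases with a mean of 10 FPKM or more (rows, y axis) in the 9 libraries (columns, x axis), with white lines between stages. The top row, TRINITY_DN347_c1_g1, was at 454 to 1032 FPKM in the seedlings and 0 at M7, and the row under it, TRINITY_DN2499_c0_g1, was at 858 to 1247 FPKM at M7.

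Glutaredoxins use glutathione to reduce disulfides, and the monothiol forms also carry iron-sulfur clusters. Of 29 members, 6 rose (20.7%) and 6 fell (20.7%) in M7 against L1, beside 9.37% and 35.1% of all unigenes. The counts were 9 and 4 under both other scalings. The most abundant, TRINITY_DN2915_c0_g1, ranged from 160 to 247 FPKM over all 9 libraries and passed no test. The monothiol glutaredoxin-S4 unigene TRINITY_DN13587_c0_g2, whose *Arabidopsis* namesake belongs to the plant-specific CC-type, was listed at 0 at L1, at 0, 0 and 0.10 FPKM at L2, and at 74.5, 12.1 and 27.7 at M7. It was nearly confined to M7, although its M7 libraries differed widely (limma adjusted p = 0.000133 in M7 against L1), and without M7 replicate 1 its M7 mean was 19.9 FPKM, too low for a DEG. Another S4 match, TRINITY_DN10912_c0_g2, had 13.5 ± 1.55 FPKM at L1, 0.160 ± 0.139 at L2 and 4.30 ± 1.62 at M7 (SD, n = 3).

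The plastid glutaredoxin-S16 (TRINITY_DN117141_c0_g1) had 13.1, 12.8 and 6.75 FPKM at L1, 15.1, 14.9 and 17.7 at L2, and 72.0, 38.5 and 38.9 at M7. M7 lay above both seedling stages, by 2.08 on the log2 scale (SE 0.33, limma adjusted p = 0.00105) against L1. A mitochondrial glutaredoxin-S15 unigene, TRINITY_DN1982_c0_g1, also rose, from 11.1 ± 4.98 to 31.6 ± 6.62 FPKM (SD, n = 3), with a log2 fold change of 1.51 (SE 0.35, limma adjusted p = 0.00769), while the more abundant S15 unigene TRINITY_DN23734_c0_g1 went from 103 ± 55.3 to 63.6 ± 13.6 FPKM and did not pass (adjusted p = 0.222). Both C3 unigenes that were DEGs in L2 against L1 were nearly absent elsewhere. TRINITY_DN14203_c0_g1 had 57.5, 47.7 and 54.9 FPKM at L2, 0.53 in 1 L1 library and 0 in the rest (log2 fold change 5.56, SE 0.22, limma adjusted p = 8.26e-07), and TRINITY_DN21617_c0_g2 had 35.8, 43.7 and 41.6 FPKM at L2 and 0 in all others. Both passed the filter on low values only through L2. Another C3 unigene, TRINITY_DN18929_c0_g1, was present in every library and fell in L2 against L1, from 35.2 ± 13.0 to 17.6 ± 2.76 FPKM (SD, n = 3; limma adjusted p = 0.0412). The C9-like unigene TRINITY_DN17052_c0_g1 was lowest at L2, at 37.3 to 43.8 FPKM, against 75.0 to 81.8 at L1 and 91.7 to 96.8 at M7.

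Among the 32 thioredoxins, 5 rose (15.6%) and 7 fell (21.9%) in M7 against L1, beside 9.37% and 35.1% of all unigenes. However, median ratio rescaling gave 10 and 4, and quantile normalization 12 and 4. Thioredoxin M3 (TRINITY_DN25340_c0_g1), the most abundant and a plastid form that in *Arabidopsis* roots is required for the meristem, had 81.7, 80.2 and 110 FPKM at L1, 38.1, 33.1 and 36.4 at L2, and 91.1, 74.7 and 55.1 at M7. L2 was below both other stages, which overlapped. The log2 fold change was -1.30 (SE 0.24, limma adjusted p = 0.00217) in L2 against L1 and 0.99 (SE 0.24, adjusted p = 0.00668) in M7 against L2. TRINITY_DN12416_c0_g1, described only as thioredoxin-like, had 14.9, 17.3 and 26.7 FPKM at L1, 5.54, 5.85 and 6.23 at L2, and 27.0, 44.8 and 35.8 at M7. It was likewise lowest at L2, with a log2 fold change of 2.40 (SE 0.28, limma adjusted p = 0.000112) in M7 against L2. Its rise in M7 against L1 (0.85, SE 0.28, adjusted p = 0.0351) was lost without L1 replicate 1 (0.68) or 2 (0.78), without M7 replicate 2 (0.68) or 3 (0.84), and without any 1 of the L2 libraries (0.85).

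CDSP32 (TRINITY_DN18124_c0_g1), a plastid protein named for its induction by drought in potato, had 7.91, 5.98 and 7.75 FPKM at L1, 5.09, 3.70 and 4.90 at L2, and 17.1, 27.0 and 45.1 at M7. The stages did not overlap, and it rose by 1.81 (SE 0.34, limma adjusted p = 0.00255) in M7 against L1. The h-type thioredoxins, which are mainly cytosolic, divided. H2-like (TRINITY_DN36964_c0_g1) rose from 49.5 ± 11.9 to 83.9 ± 2.95 FPKM (SD, n = 3) from L1 to M7 (log2 fold change 0.78, SE 0.22, limma adjusted p = 0.0186), and so did TRINITY_DN2353_c0_g2, from 26.6 ± 13.1 to 55.2 ± 5.65 FPKM (1.17, SE 0.40, adjusted p = 0.0431). The h-type-like TRINITY_DN37677_c0_g1 had 23.0, 24.1 and 53.5 FPKM at L1 and 6.19, 8.21 and 7.41 at L2, and was listed at 0 at M7, and it fell by 1.96 on the log2 scale in L2 against L1 (SE 0.32, limma adjusted p = 0.00125). TRINITY_DN20435_c0_g1, also h-type-like, was found only at L2, at 19.1, 23.1 and 18.4 FPKM.

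Thioredoxin itself is recharged by NADPH-dependent reductases, or in plastids by ferredoxin-thioredoxin reductase. Of the 5 reductase unigenes, 1 rose (20%) and 1 fell (20%) in M7 against L1, beside 9.37% and 35.1% of all unigenes. The ferredoxin-thioredoxin reductase unigene TRINITY_DN106529_c0_g1 had 15.7, 21.6 and 18.5 FPKM at L1, 17.4, 18.4 and 18.3 at L2, and 30.9, 26.7 and 45.5 at M7. M7 lay above the overlapping seedling stages. It rose by 0.83 (SE 0.24, limma adjusted p = 0.0222) in M7 against L1, a call lost without L1 replicate 1 (0.72) or M7 replicate 3 (0.61). NTRB (TRINITY_DN19162_c0_g1), an NADPH-dependent reductase, was at 0.70, 0.23 and 0.23 FPKM at L1, at 18.8, 8.74 and 18.2 at L2, and at 0 at M7, and rose by 3.50 (SE 0.30, limma adjusted p = 2.18e-05) in L2 against L1.

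The summed level of the green tissue markers was highest at M7, although 10 of the 18 fell and 2 rose in M7 against L1. The members whose description names the chloroplast were therefore counted apart. Of these 27, 4 rose and 3 fell in M7 against L1, and 6 rose and 10 fell in M7 against L2. Of all unigenes, 9.37% rose and 35.1% fell in M7 against L1, and 7.71% and 52.6% did so against L2. Of the 10 chloroplast members with a mean of 10 FPKM or more, 4 rose and 1 fell in M7 against L1. Against L2, 5 of them rose and 0 fell. Of all unigenes over that limit, 17.7% and 39% did so against L1, and 15.7% and 44% against L2. The 4 that rose included peroxiredoxin-2E-2, glutaredoxin-S16 and CDSP32, given above. Of the 8 members named for mitochondria, 2 rose and 4 fell in M7 against L1. Members of other compartments rose too, among them SOD, APX, peroxiredoxin-2B and thioredoxin forms of the cytosol and mitochondria. The compartment that a description names does not tell which tissue the RNA came from. Within M7, the library with the highest summed green tissue markers was replicate 1 (3011 FPKM), and of the 20 abundant members that rose in M7 against L1 it was the highest M7 library in 9, replicate 2 in 5 and replicate 3 in 6. Of the 14 abundant members that fell, replicate 1 was the lowest above 0 in 8, and 5 were at 0 in all M7 libraries. The part of green tissue RNA or of this library in the results was not tested beyond leaving the library out, which left 29 members that rose and 53 that fell in M7 against L1.

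A number of members were found in a single stage. At L2 alone, at 1 FPKM or more in all its libraries and below 0.1 in all others, were 19 members (11.5%, beside 11.8% of all unigenes). At L1 alone were 9 (5.45%, beside 3.73%), and at M7 alone none (beside 0.126%). Their levels were mostly low, with L2 means of 1.72 to 40.4 FPKM (median 4.31) for the 19 and L1 means of 1.55 to 18.2 (median 3.87) for the 9. Members below 1 FPKM in every library outside a single stage passed the filter on low values through that stage alone. Their p-values are therefore no separate evidence for the pattern. Peroxiredoxins made up 6 of the 19, among them 1-Cys, 2-Cys BAS1 and Q forms at 1.72 to 2.30 FPKM. The highest of the 9 was the glutaredoxin TRINITY_DN35019_c0_g1, with 29.3, 22.7 and 2.47 FPKM in the L1 libraries, of which replicate 3 was well below the others. Below 0.1 FPKM in all M7 libraries were 61 members (37.0%, beside 36.1%), 8 of them among the 71 abundant ones. All members carry a description and had matches to the named species dropped. Among the 18075 unigenes with a description after the same drop, 5.67% were found at L2 alone, 1.52% at L1 alone, and 19.9% were below 0.1 FPKM in all M7 libraries, so that the members' shares were near those of all unigenes and above those of this narrower set. The matches of the members came from 74 species, and 35 members lay in 16 Trinity components with 2 or more members, where reads may be divided between near-identical transcripts.

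**Figure D5:**
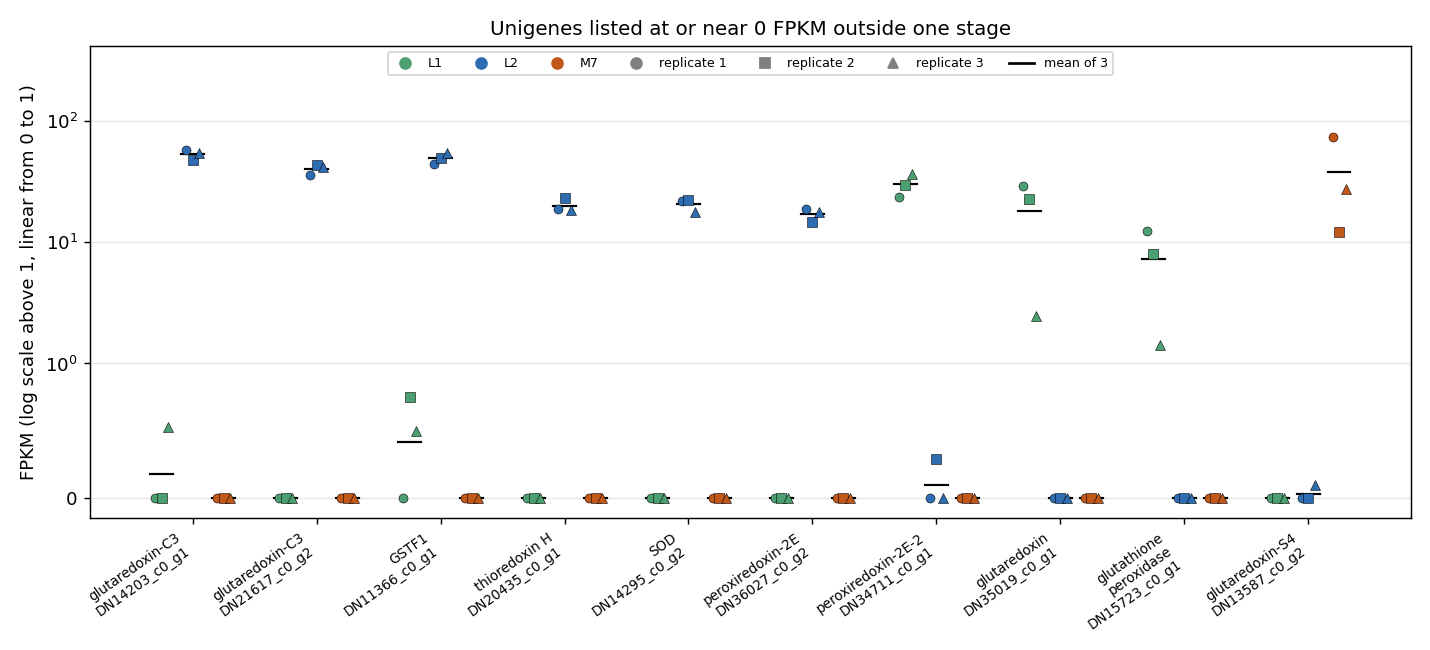
FPKM (y axis, log scale above 1 and linear from 0 to 1) of 10 members, chosen for this pattern, that were at or near 0 outside a single stage. Colours give the stage, point shapes the replicate and black bars the mean of 3. Glutaredoxin-C3, GSTF1, thioredoxin H, SOD and peroxiredoxin-2E unigenes stood up at L2, the next 3 at L1, and glutaredoxin-S4 (12.1 to 74.5 FPKM) at M7.

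Between the 2 seedling stages, 6 of the 71 abundant members rose (8.45%) and 16 fell (22.5%) in L2 against L1. Of all unigenes over the limit, 9.48% rose and 8.85% fell. The limit uses the levels of these stages themselves. GSTF1 and the glutaredoxin-C3 unigenes TRINITY_DN14203_c0_g1 and TRINITY_DN21617_c0_g2 led the rises, but all of them passed the limit only through L2. They were followed by 2 TPR repeat-containing thioredoxins, proteins with a thioredoxin-like end behind a protein-binding repeat. Of these, TRINITY_DN3578_c0_g1 went from 8.43 ± 0.242 to 21.0 ± 1.00 FPKM (SD, n = 3), with a log2 fold change of 1.22 (SE 0.41, limma adjusted p = 0.044). The 16 that fell came from 7 families and included APX TRINITY_DN106620_c0_g1, catalase TRINITY_DN102186_c0_g1 and thioredoxin M3. YLS8 (TRINITY_DN14980_c1_g3), a thioredoxin-like component of the splicing machinery, also fell, from 77.0 ± 5.24 to 49.9 ± 8.42 FPKM (SD, n = 3), with a log2 fold change of -0.63 (SE 0.18, limma adjusted p = 0.0249).

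The 59 other redox unigenes, chosen by description and outside the members' words, were examined beside the members. In M7 against L1, 4 rose (6.78%, beside 9.37% of all unigenes) and 26 fell (44.1%, beside 35.1%), with 9 DEGs (15.3%, beside 5.14%). In M7 against L2, 6 rose (10.2%, beside 7.71%) and 32 fell (54.2%, beside 52.6%), with 4 DEGs (6.78%, beside 5.15%). In L2 against L1, 14 rose (23.7%, beside 26.1%) and 9 fell (15.3%, beside 14.8%), with 1 DEG (1.69%, beside 1.24%). The metal-binding metallothionein type 2 TRINITY_DN2968_c0_g1 fell from 37810 FPKM at L1 to 10832 at L2 and 3184 at M7 (log2 fold change -3.63, limma adjusted p = 0.000105 in M7 against L1). Ferritins, which store iron in plastids, moved in both directions. Ferritin-4 (TRINITY_DN2752_c0_g1) rose from 15.2 FPKM at L1 to 121 at M7 (log2 fold change 2.74, limma adjusted p = 0.00101), whereas ferritin 3 (TRINITY_DN22489_c0_g1) had means of 4.91 FPKM at L1 and 63.8 at L2 and was listed at 0 at M7. A peptide methionine sulfoxide reductase (TRINITY_DN19661_c0_g1), which repairs oxidized methionine with electrons from thioredoxin, rose from 16.9 FPKM at L1 to 187 at M7 (log2 fold change 3.52, limma adjusted p = 0.00206). Others of this kind did not pass between these stages. TRINITY_DN12007_c0_g1 had means of 80.7 FPKM at L1 and 105 at M7, and TRINITY_DN16201_c0_g1 had 20.4 and 20.5. TRINITY_DN106014_c0_g1 was listed at 0 in both stages. A mitochondrial alternative oxidase (TRINITY_DN2755_c0_g1), which lowers superoxide formation by respiration, fell from 76.7 to 10.9 FPKM (log2 fold change -2.97, limma adjusted p = 0.00168).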

How the data were processed

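The authors sequenced mRNA of 9 root libraries. Read quality was checked with FastQC and reads were trimmed with fastx_toolkit. A Trinity assembly of the clean reads gave the unigenes, which RSEM quantified. The deposited values are FPKM per unigene and library. The paper also names TPM, and the column sums do not tell them apart, so the authors' values are called FPKM. The values are not counts, and the strand setting is not given in the sources used here. The table holds no read counts, so the counting error of single values was not computed.

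Values were tested with limma 3.58.1 (R 4.3.3; a mean per stage, eBayes with trend, two-sided) on log2(FPKM + 1), over unigenes at 1 FPKM or more in at least 3 of the 9 libraries, in 1 fit with Benjamini-Hochberg adjustment over all of them. The DEG thresholds follow the methods of the study, with its FPKM maximum read as the highest stage mean. The members, families and lists were chosen with earlier results of these data known. The members named by rule were the most abundant of each family, those with the largest rise and fall in each comparison and every DEG, and others were named after their values were seen. Of the 58 dropped matches, 48 were below 0.1 FPKM in all M7 libraries. The filter kept TRINITY_DN10650_c0_g2, with a third-highest library of 1.05 FPKM, and left out TRINITY_DN103685_c0_g1, at 0.98. The script was tested on simulated data. Alternatives were other pseudocounts, filters, scalings, fits and left-out libraries. No sequence of the unigenes was used here.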

Additional observations from a re-analysis of the deposited data

How the results depend on the processing

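Most values for single named members kept their side of the significance threshold: 2521 of their values under the alternatives did so, and 60 lost and 27 gained significance. Sign changes of values that passed in neither fit are included in the 2521. A further 5 turned sign where the main or the alternative value passed the test. The 5 were under quantile normalization: TRINITY_DN26825_c0_g1 to -0.18 in M7 against L1 and -0.29 against L2, and in M7 against L2 TRINITY_DN28748_c0_g1 to 0.53, TRINITY_DN114185_c0_g1 to 0.093 and TRINITY_DN113450_c0_g1 to 0.0073. The mean filter of 5 FPKM, which tests fewer unigenes, left 11 members that rose and 13 that fell in L2 against L1, and 25 and 28 that fell in M7 against L1 and against L2. The median log2 fold change of the members moved to -0.098 in L2 against L1 and to 0.00 in M7 against L1 with that filter. With median ratio rescaling the median of L2 against L1 was -0.20, that of M7 against L1 -0.040 and that of M7 against L2 -0.014, and with quantile normalization they were -0.15, 0.20 and 0.26 in that order. A pseudocount of 0.1 gave -0.59 in M7 against L1. In M7 against L2 it gave -1.04, and a pseudocount of 5 gave -0.26. Members that rose in M7 against L1 numbered 37 with median ratio rescaling, 45 with quantile normalization and 14 in a fit of only the 2 stages. For M7 against L2 they numbered 45 and 46 with the rescalings, with 39 that fell after quantile normalization. DEGs numbered 26 in M7 against L2 with median ratio rescaling, and at an absolute log2 fold change over 1 they numbered 11 (L2 against L1), 22 (M7 against L1) and 28 (M7 against L2). With 1 library left out at a time, DEGs numbered 3 to 6 in L2 against L1 and 7 to 14 in M7 against L1, both lowest without L1 replicate 3, the median in L2 against L1 ran from -0.081 to 0.078, and 24 to 35 members rose in M7 against L2. Without both L1 replicate 3 and M7 replicate 1, 44 members rose in M7 against L2, and DEGs numbered 3 in L2 against L1 and 7 in M7 against L1. The cause of these changes was not tested where the construction does not show it. Replicate numbers did not pair the libraries, since correlations of same-numbered libraries' deviations ran from -0.053 to 0.053, and with the replicate number as a block 35 rose and 36 fell in L2 against L1, 22 and 49 in M7 against L1, and 27 and 66 against L2. The table holds no read counts, so no limit on expression was computed for a value of 0. The sums without PAT1 or without M7 replicate 1 and the split of the glutathione enzymes were chosen after seeing the data.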
